A study of Homo sapiens with 12 samples.

Results

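The interaction of tumour necrosis factor (TNF) and interleukin 1 beta (IL1) was measured in T-HESC cells, a line of human endometrial stromal cells that an introduced telomerase keeps dividing. The question was whether the cytokines given together moved a gene by more or by less than their separate effects predict. All 12 arrays of the series were used, 3 in each of 4 groups. Every culture was serum-starved for 24 h in medium with puromycin and then kept for 48 h with vehicle, with TNF (5 ng/ml), with IL1 (1 ng/ml) or with the pair, each at its single dose. In each group the 3 arrays came from passage 13 (replicate 1), passage 28 (replicate 2) and passage 15 (replicate 3), so all replicates are 1 cell line and the errors describe the spread between its passages. A single dose of each cytokine and a single time were used, and a sum or a product of effects holds for those only.

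Every probe that could be measured in each group entered the comparison; the genes named below were then picked mostly by their values, as the lowest interaction p and the largest effects of each class. Of 54359 probes, 53671 had positive values on 2 or more arrays in each group and stood for 18106 named genes, each represented by its brightest probe. For each probe the interaction was computed on log2 intensities as the difference between both cytokines and TNF, minus the difference between IL1 and vehicle. An interaction of 0 means that the fold changes of the single cytokines multiply, and a value below 0 means that both together gave less than that product. The same genes were also compared on linear intensities, where the reference is the sum of the single rises. The word "called" is used for an adjusted p under 0.05 (limma with Benjamini-Hochberg adjustment over all probes tested).

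TNF and IL1 bind unrelated receptors that recruit different adaptor proteins, and both routes then converge on the same kinases. These release the NF-kB transcription factors from their inhibitors and activate AP-1 through the stress kinases. Stromal cells of the endometrium answer both cytokines with chemokines, interleukins, prostaglandin enzymes and matrix enzymes, and NF-kB also induces its own inhibitors. Genes driven through a shared and limited step can saturate, while genes that need cooperating factors can respond only to the combination.

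The promoters of 3 of the genes described below are shown. Of these, 2, CXCL8 and IL32, saturated and 1, IL6, exceeded the sum of its single rises. Each window runs from 250 bases before to 50 bases after the RefSeq start (GRCh38.p14, forward strand in all 3). Capitals mark matches to the kB motif, written GGNNNTTCC or as the full kB consensus. CXCL8 lies at chr4:73740319-73740618, IL32 at chr16:3065153-3065452 and IL6 at chr7:22726950-22727249.
CXCL8: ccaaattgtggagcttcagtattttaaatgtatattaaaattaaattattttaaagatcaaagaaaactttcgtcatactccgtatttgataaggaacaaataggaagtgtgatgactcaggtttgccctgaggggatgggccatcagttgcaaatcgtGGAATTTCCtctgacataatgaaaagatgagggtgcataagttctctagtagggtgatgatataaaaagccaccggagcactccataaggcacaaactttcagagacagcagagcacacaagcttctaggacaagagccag
IL32: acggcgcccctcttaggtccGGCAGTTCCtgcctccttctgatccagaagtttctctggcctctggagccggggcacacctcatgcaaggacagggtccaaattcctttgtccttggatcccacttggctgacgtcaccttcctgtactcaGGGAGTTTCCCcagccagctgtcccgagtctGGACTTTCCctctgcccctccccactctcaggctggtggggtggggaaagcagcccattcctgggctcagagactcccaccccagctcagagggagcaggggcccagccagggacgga
IL6: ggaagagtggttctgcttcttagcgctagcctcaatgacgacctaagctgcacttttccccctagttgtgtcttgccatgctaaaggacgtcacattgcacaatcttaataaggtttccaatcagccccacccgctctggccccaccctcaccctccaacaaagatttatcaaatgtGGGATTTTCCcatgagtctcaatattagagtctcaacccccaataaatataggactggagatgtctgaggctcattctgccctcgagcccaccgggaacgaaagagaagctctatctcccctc
The motif GGNNNTTCC began 91 bases before the start in CXCL8. It began 230, 98 and 68 bases before the start in IL32, and 72 bases before the start in IL6. CXCL8 also held the AP-1 motif TGANTCA, 137 bases before its start. On either strand, GGNNNTTCC occurred in 20.1% of 27305 RefSeq promoter windows, the full kB consensus in 10.8%, TGANTCA in 7.76% and the interferon element (GAAA, any 2 bases, GAAA) in 3.65%. Of the 63 genes that responded to both cytokines, 46 were in the promoter table, and 15, 12, 8 and 6 of them held these motifs in that order. GGNNNTTCC was found in 2 of the 8 saturating genes in the table, and 0 of the 5 that needed both cytokines held these letters in this window. Of the 6 genes in the table classed as giving more than the sum, 1 held it. CXCL8, IL32 and IL6 are thus the only members of their classes in the table with this motif, and do not stand for the others.

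The arrays had median intensities of 1.03 to 1.07. On the first principal component (22.6% of the variance) vehicle 3, TNF 3 and IL1 2 lay apart on one side, and vehicle 1 was farthest out on the other. The median standard deviation of a gene over the 3 arrays of a group was 0.53 on the log2 scale in vehicle, 0.29 with TNF, 0.28 with IL1 and 0.14 with both cytokines. The 10 measured stromal markers had mean log2 levels of 0.74 (MME in vehicle) to 9.28 (COL1A1 in vehicle); MME read 1.69 with TNF, 1.53 with IL1 and 2.73 with both and was not called (adjusted p = 0.0754, limma). Of 9 leukocyte markers, PTPRC and CD14 lay at -2.41 or lower, while CD68 read 1.93 to 2.46 and CD3E 0.71 to 1.06. Their summed intensity was 9.86 to 10.6 with both and 6.62 to 9.81 on the other arrays, and that of 7 endothelial markers was 15.0 to 22.3 over all arrays. The summed intensity of 9 epithelial markers was 104 to 141 in vehicle, 75.7 to 123 with TNF, 42.2 to 76.8 with IL1 and 53.8 to 55.9 with both. The part of these sums in the results was not tested. Fewer cells of a kind and less RNA per cell cannot be told apart in such bulk samples.

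No probe was called for the interaction. On the log2 scale the lowest adjusted p was 0.843 (limma), and 1927 of 53671 probes (3.59%) had an unadjusted p under 0.05, where 2684 would be met at 5%. Among named genes 522 (2.88%) did so, 329 above 0 (1.82%) and 193 below (1.07%). On the linear scale 0 probes were called as well, 1731 (3.23%) had an unadjusted p under 0.05, and the lowest adjusted p was 1.00 (limma). The median interaction of all genes was 0.07 with a standard deviation of 0.65, and 43.1% of genes lay below 0. In genes above the median signal the 95% interval of an interaction reached 0.87 to each side at the median. Smaller departures from the product were thus not resolvable even before correction. Correction over all probes asks for more: CXCL8 at -3.70 and HSD11B1 at -3.48 were not called. Of 50 simulated interactions of each size, 1 was recovered at size 1, 25 at size 2 and 46 at size 4. The 0 calls therefore do not exclude interactions larger than 0.87. Individual interactions are therefore given with their intervals, as measurements that did not pass correction.

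The cytokines together did change expression. Against vehicle 133 probes were called (0.248%), 101 higher (0.188%) and 32 lower (0.0596%). These included 63 named genes (0.348%), 52 higher (0.287%) and 11 lower (0.0608%). TNF alone gave 25 called probes (0.0466%) and IL1 alone 3 (0.00559%): these were 2 probes of HSD11B1 and 1 of SOD2. The number called for both cytokines rested on the arrays and their weighting: it was 88 with passage as a block and 77 without vehicle 3, TNF 3 and IL1 2. It was 62, 27 or 47 without array 1, 2 or 3 of both cytokines, and 92 to 137 without 1 array of another group. With a whole passage left out it was 6, 4 and 4 (passages 13, 28 and 15), and it was 1677 when limma weighted each array by its quality. The interaction gave 0 calls under each of these settings except without TNF 2, where 1 probe (CXCL8) was called.

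In direct comparisons, 1 probe (0.00186%) was called for both cytokines against TNF and none against IL1; 2729 probes (5.08%) and 2347 (4.37%) had an unadjusted p under 0.05 (limma). That 1 probe has no single gene in the annotation. Its mean log2 level was -0.87 in vehicle, -1.69 with TNF, -0.07 with IL1 and 2.38 with both. All 3 arrays of both cytokines, at 1.83, 2.87 and 2.43, lay above every other array, the highest of which read 0.45. The difference from TNF was 4.07 (adjusted p = 0.0494, limma), and the interaction was 3.27 ± 0.55 (SE; unadjusted p = 0.000131, limma).

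The 63 called genes were sorted by how the level with both compared with the single cytokines. A gene saturated when each cytokine alone gave at least 1 on the log2 scale and both gave less than 0.5 beyond the stronger one. It followed 1 cytokine when only 1 single effect reached 1 and the other added less than 0.5. It needed both when neither single effect reached 1 and both exceeded the stronger one by at least 1. The rest added when the linear rise with both was 0.67 to 1.5 times the sum of the single rises, multiplied when the log2 interaction was within 0.5 of 0, and otherwise gave more or less than the sum. By these rules 12 genes saturated, 7 followed 1 cytokine, 6 needed both, 16 added, 13 multiplied, 8 gave more than the sum and 1 gave less.

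**Figure D1:**
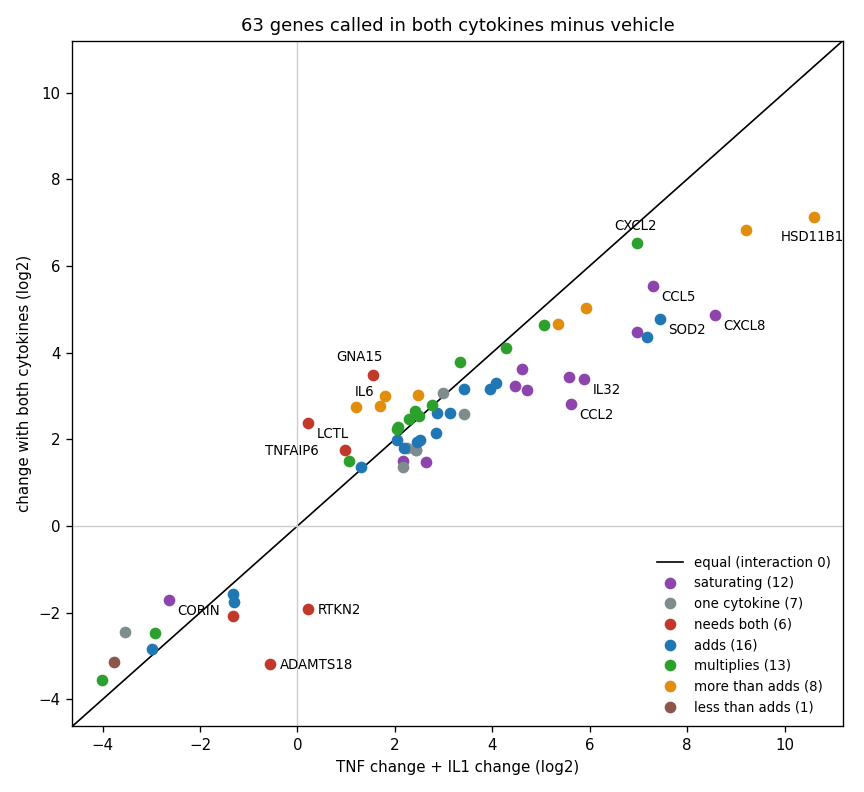
Each point is 1 of the 63 genes called in both cytokines against vehicle, coloured by class, with the number of genes in brackets. The x axis is the TNF effect plus the IL1 effect and the y axis the effect of both, all log2; the line marks equality. The largest single effects sit under the line: HSD11B1 reached 7.12 from single effects of 5.73 and 4.87, and CXCL8 reached 4.87 from 3.99 and 4.59.

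Of the 63 genes, 40 had an interaction below 0, with a median of -0.45; this was 35 of the 52 raised genes and 5 of the 11 lowered ones. An unadjusted p under 0.05 was reached by 14 below 0 and 6 above (limma). In 60 genes with all passages measured, 31 had an interaction of 1 sign in all 3 passages, where 22.4% of all genes did. These counts lean on how the genes were found. With the group spreads of all genes given above, the noise of the interaction and of both minus vehicle is correlated at -0.712. Of the interaction's variance, 61.6% then comes from the vehicle arrays. In the 60 called genes the median spreads were 0.41 in vehicle, 0.41 with TNF, 0.39 with IL1 and 0.20 with both. The correlation was not computed for these more even spreads. Vehicle still spread more than both, so a raised gene tends towards a value below 0. Nothing is read from the 40 of 63.

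The direction of the point estimate depended on the scale for many genes. Of the 52 raised genes, 19 had an interaction below 0 on the log2 scale and yet rose by more than the sum of their single linear rises, 16 were below on both scales and 17 above on both. The tilt given above applies to these log2 signs as well. On the linear scale an unadjusted p under 0.05 was reached by 9 raised genes above the sum and 3 below it (limma), so most linear directions are point estimates. Of all genes, 1.88% had a linear interaction above 0 at that level and 0.735% one below. The arrays of both cytokines also chose the raised genes, which favours a rise above the sum. Their linear counts and ratios are therefore a description only. The median linear ratio of the raised genes was 1.32, and over all 63 genes it was 1.08. Of the 63 genes, 28 lay from 0.67 to 1.5 and 11 under. The other 24 lay above, except RTKN2, whose ratio was -3.35 because its single changes summed to the other direction. In 33 of 51 raised genes with all values, every array of both cytokines lay above every TNF and every IL1 array. Such a separation was seen in 2.18% of all genes, and because the arrays of both cytokines also chose the called genes it is given as a description.

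**Figure D2:**
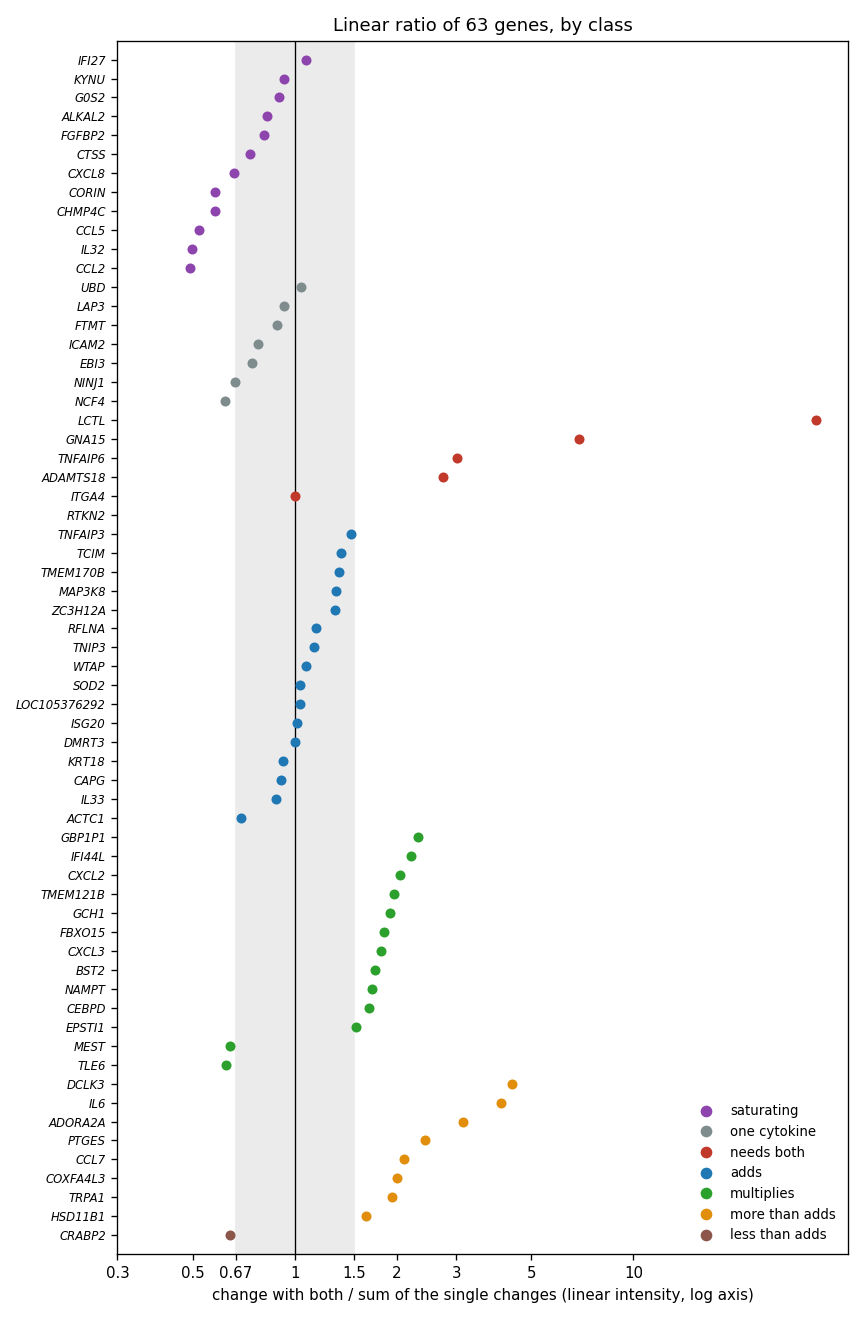
For each of 62 genes the x axis gives the change with both cytokines divided by the sum of the TNF and IL1 changes, in linear intensity on a log axis; colours are the classes and the grey band runs from 0.67 to 1.5. RTKN2 is named without a point because its single changes sum to the other direction. Saturating genes reach from 0.49 for CCL2 to 1.08 for IFI27, and LCTL lies farthest right at 34.7.

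The 12 saturating genes included the chemokines CXCL8, CCL2 and CCL5, the cytokine IL32, the receptor ligand ALKAL2 and the growth factor binding protein FGFBP2. The others were the lysosomal protease CTSS, the tryptophan enzyme KYNU, the lipase inhibitor G0S2, the interferon-induced IFI27, CHMP4C of the membrane-cutting ESCRT machinery, and the serine protease CORIN, which was lowered. A second IFI27 probe was also called with both. Its mean log2 levels were 1.22 in vehicle, 4.58 with TNF, 2.57 with IL1 and 5.22 with both. The gain of this probe over TNF exceeded 0.5 and its linear ratio was 1.37, so by the rules above it added. The interaction was -0.98 ± 0.72 for the IFI27 probe used and -0.71 ± 0.57 for the second (SE). Across all 63 genes TNF was the stronger single cytokine in 41 and IL1 in 22, and the 95% interval of the gain over the stronger one lay above 0 in 34. The arrays of both cytokines also chose these genes, which favours a gain, so the 34 is a description only.

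IL32, a pro-inflammatory cytokine, was lower with both cytokines than with TNF alone. Its log2 levels were 2.84, 3.92 and 3.62 in vehicle, 7.58, 7.59 and 7.62 with TNF, 5.49, 5.59 and 4.54 with IL1, and 6.97, 6.90 and 6.66 with both. The 3 arrays of both cytokines lay between the IL1 and TNF arrays and overlapped neither group. The difference from TNF was -0.75 (95% interval -1.48 to -0.02). The interaction was -2.50 ± 0.46 (SE; unadjusted p = 0.000293, limma), and the linear rise of 104 was 0.50 of the sum of 209.

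CCL2, which draws monocytes, had nearly the same level in all treated groups. It read 1.08, 1.59 and 2.42 in vehicle, 4.87, 4.12 and 4.90 with TNF, 4.58, 4.66 and 3.88 with IL1, and 4.13, 4.74 and 4.65 with both. The treated groups overlapped one another and none overlapped vehicle. The interaction was -2.80 ± 0.54 (SE; unadjusted p = 0.000381, limma), and both cytokines gave a linear rise of 19.6 against a sum of 39.8.

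CXCL8, a chemokine that attracts neutrophils, was raised strongly by each treatment. Its log2 levels were 4.81, 4.11 and 4.63 in vehicle, 9.20, 6.82 and 9.49 with TNF, 9.13, 8.96 and 9.22 with IL1, and 9.36, 9.48 and 9.33 with both. The TNF array of passage 28 was far below the other 2 TNF arrays, and the group of both overlapped TNF but not IL1. The interaction was -3.70 ± 0.80 (SE; unadjusted p = 0.000917, limma). It was the only named gene called for an interaction under any alternative: without the second TNF array its value was -4.54 (adjusted p = 0.0094, limma), and with all arrays it was not called.

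The reading of CXCL8 with both cytokines was close to the brightest on its arrays. With both cytokines it ranked 3, 1 and 2 among the probes of its arrays, at 93.3%, 100% and 95.6% of the maximum of its array. The sum of its single linear rises, 977, exceeded the brightest readings on those arrays, 702, 713 and 672. No other called gene had a linear sum above that ceiling, but the product of the single effects lay above it for CXCL8, SOD2 and HSD11B1. IL32, in contrast, never passed 23.3% of an array's maximum.

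CTSS, the protease cathepsin S of antigen processing, followed the same pattern on the log2 scale at mid range. It read 1.60, 1.27 and 1.11 in vehicle, 5.13, 4.08 and 4.92 with TNF, 3.72, 3.17 and 3.67 with IL1, and 4.49, 4.90 and 4.94 with both. Both cytokines together lay above IL1 and within the TNF arrays. The interaction was -2.13 ± 0.42 (SE; unadjusted p = 0.000481, limma), and a second probe of the gene gave -2.44. G0S2 had an interaction of -2.49 ± 0.68 and ALKAL2 one of -1.56 ± 0.37 (SE). CCL5 was at 5.49 to 6.06 with both and at 4.92 to 7.10 with TNF, and its vehicle mean rests on 2 arrays because the first had no positive value.

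**Figure D3:**
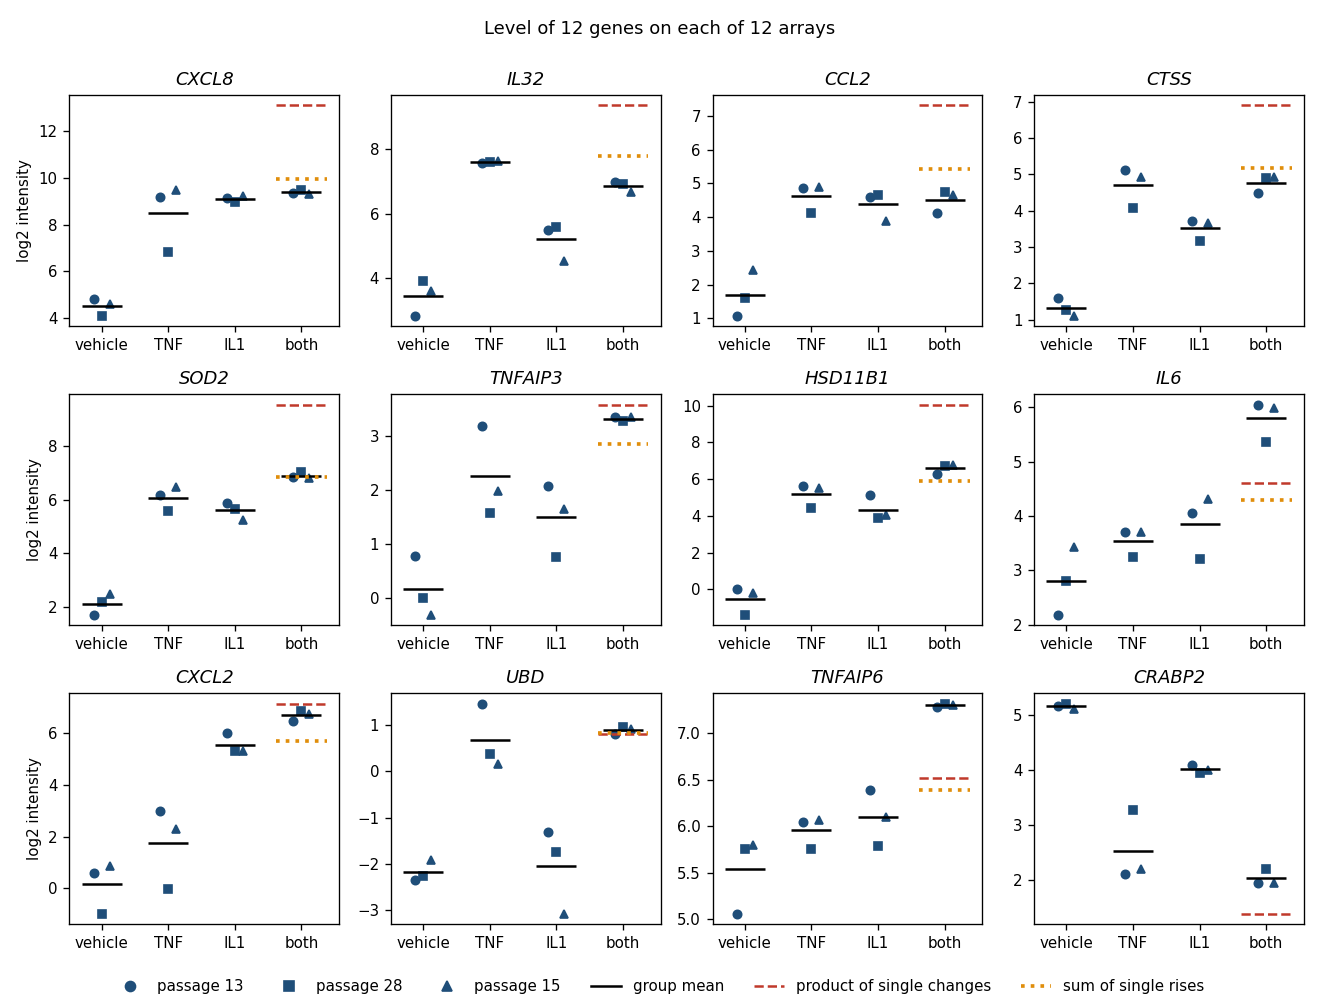
Log2 intensity (y axis) of 12 genes on the 12 arrays, by treatment group (x axis); symbols are passages, black bars group means, red dashes the product and orange dots the sum of the single effects, drawn at both cytokines. CRABP2 has no orange mark because its single falls sum to more than its vehicle level. The level with both lies far under the product in CXCL8, IL32, CCL2, CTSS, SOD2 and HSD11B1, and above both marks in IL6 and TNFAIP6.

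In all 7 genes that followed 1 cytokine, that cytokine was TNF. UBD, which encodes the ubiquitin-like modifier FAT10, read -2.35, -2.26 and -1.92 in vehicle, 1.47, 0.37 and 0.17 with TNF, -1.30, -1.75 and -3.08 with IL1, and 0.80, 0.95 and 0.91 with both. IL1 overlapped vehicle, and both overlapped TNF. The interaction was 0.09 ± 0.64 (SE), and it changed sign between the passages. EBI3, a subunit shared by heterodimeric cytokines of the interleukin 12 family, was at 3.77, 3.14 and 3.44 with TNF and at 3.53, 2.98 and 3.07 with both. The others were LAP3, an aminopeptidase, FTMT, mitochondrial ferritin, ICAM2 and NINJ1, both membrane proteins of cell adhesion, and the lowered NCF4, a subunit of the phagocyte oxidase, which was dim and had no value on the first TNF array.

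By this rule 6 genes needed both cytokines. GNA15, an alpha subunit of heterotrimeric G proteins, read -1.60, -2.63 and -2.55 in vehicle, -1.57, -1.56 and -1.93 with TNF, -0.57, -1.69 and -1.61 with IL1, and 1.18, 1.10 and 1.41 with both. The group with both cytokines stood above all 9 other arrays. The interaction was 1.95 ± 0.50 (SE; unadjusted p = 0.00288, limma), and the linear rise of 2.13 was 6.92 times the sum.

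LCTL, a relative of the lactase enzyme, read -1.16, -1.0 and -2.06 in vehicle, -0.79, -1.01 and -1.40 with TNF, -1.73, -1.18 and -1.67 with IL1, and 1.17, 1.09 and 0.65 with both. Only the arrays with both cytokines were above 0, the level of an intensity of 1. The interaction was 2.15 ± 0.44 (SE; unadjusted p = 0.000612, limma) and had this sign in each passage.

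TNFAIP6 encodes TSG-6, a secreted protein that binds hyaluronan. It read 5.06, 5.75 and 5.80 in vehicle, 6.04, 5.76 and 6.07 with TNF, 6.39, 5.79 and 6.10 with IL1, and 7.28, 7.32 and 7.30 with both. Each single cytokine overlapped vehicle, and both cytokines stood above all 9 other arrays. The interaction was 0.79 ± 0.34 (SE; unadjusted p = 0.0427, limma), with -0.09, 1.52 and 0.93 in passages 13, 28 and 15, and the linear rise of 110 was 3.02 times the sum of 36.4.

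The other 3 were lowered. The integrin chain ITGA4 fell by 2.09 with both; its arrays read 1.58, 1.46 and 1.5, under all 9 others, and its linear fall equalled the sum of the single differences (ratio 1.01). A second, dim probe of ITGA4 fell by 0.42 and was not called. The protease gene ADAMTS18 and RTKN2 had interactions of -2.62 ± 0.60 and -2.14 ± 0.44 (SE), but both were dim, and ADAMTS18 had no value on the second array of both cytokines.

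The class that added on the linear scale held 16 genes. SOD2, the mitochondrial superoxide dismutase, had the lowest interaction p of all named genes. Its log2 levels were 1.70, 2.17 and 2.47 in vehicle, 6.18, 5.57 and 6.47 with TNF, 5.88, 5.66 and 5.25 with IL1, and 6.83, 7.02 and 6.82 with both. Every treated array stood above vehicle, and both cytokines above all 6 single ones. On the log2 scale the interaction was -2.67 ± 0.41 (SE; 95% interval -3.57 to -1.77; unadjusted p = 5.84e-05, adjusted p = 0.843, limma). On the linear scale TNF added 65.0, IL1 44.8 and both 114, which is 1.04 times their sum of 110 (linear interaction 4.36 ± 19.8, SE). A second probe of the gene did not follow it: its mean log2 levels were 0.12 to 0.40 in all groups, and its interaction was 0.06.

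TNFAIP3 encodes A20, the deubiquitinase that limits NF-kB. It read 0.79, 0.01 and -0.30 in vehicle, 3.19, 1.59 and 1.98 with TNF, 2.07, 0.77 and 1.65 with IL1, and 3.35, 3.28 and 3.35 with both. The single cytokines varied between passages while both gave almost 1 value, above all of them. Its linear ratio was 1.47, near the upper edge of the class, and its interaction -0.26 ± 0.65 (SE). IL33, an alarmin held in the nucleus, had single effects of 3.68 and 3.49, an effect of both of 4.36 and an interaction of -2.82 ± 0.84 (SE).

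The class also held TNIP3, a partner of A20, ZC3H12A, an RNase that degrades cytokine transcripts, the kinase MAP3K8, WTAP of the RNA methylation complex, the exonuclease ISG20, and TCIM, RFLNA, DMRT3, LOC105376292 and TMEM170B. ACTC1, an actin of muscle, the actin-capping CAPG and the keratin KRT18 were its lowered members. KRT18 is one of the epithelial markers whose sum is given above.

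A further 13 genes multiplied, in the sense that the fold changes compounded within 0.5. CXCL2, a neutrophil chemokine, was mainly an IL1 gene. It read 0.59, -0.98 and 0.88 in vehicle, 2.99, -0.01 and 2.31 with TNF, 5.99, 5.31 and 5.33 with IL1, and 6.47, 6.86 and 6.73 with both. TNF overlapped vehicle, and both lay above IL1. The interaction was -0.46 ± 1.00 (SE), too wide to separate compounding from addition, and the linear rise of 102 was 2.05 times the sum.

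Its neighbour in function, CXCL3, was in this class too, as were the interferon-induced BST2, IFI44L and EPSTI1, the transcription factor CEBPD, NAMPT of NAD synthesis and GCH1 of biopterin synthesis. GBP1P1 is a pseudogene of the interferon-induced GTPase GBP1, and a probe for it may also bind its parent transcript. FBXO15 and TMEM121B rose; the imprinted MEST and TLE6 fell. MEST fell by 3.56 with both, and its interaction of 0.46 ± 0.51 (SE) lies at the edge of the class.

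The class with more than the sum held 8 genes that no earlier rule had taken. Counted over all classes, 36 of the 52 raised genes rose by more than the sum, a description only because the arrays of both cytokines also chose them. HSD11B1, an enzyme that turns inactive cortisone back into cortisol, had the largest effect of both cytokines among named genes called. It read 0.00, -1.39 and -0.21 in vehicle, 5.65, 4.43 and 5.51 with TNF, 5.13, 3.87 and 4.03 with IL1, and 6.30, 6.72 and 6.76 with both. Each treatment was apart from vehicle, and both lay above all single arrays. Its log2 interaction was -3.48 ± 0.67 (SE; unadjusted p = 0.000384, limma), while its linear rise of 96.8 was 1.62 times the sum of 59.6. The linear interaction was 37.2 ± 22.8 (SE; unadjusted p = 0.132, limma), too wide to separate more than the sum from addition. A second probe of the gene gave a log2 interaction of -3.06 and a ratio of 1.67 (linear interaction 33.4 ± 18.8, SE).

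IL6, a cytokine of the acute phase, was above the reference on both scales. Its log2 levels were 2.19, 2.80 and 3.43 in vehicle, 3.70, 3.24 and 3.70 with TNF, 4.06, 3.21 and 4.31 with IL1, and 6.05, 5.36 and 5.99 with both. The single cytokines overlapped vehicle, and both stood above all 9 other arrays. The interaction was 1.20 ± 0.53 (SE; 95% interval 0.01 to 2.39; unadjusted p = 0.0484, limma), and it was 0.64 without vehicle 3, TNF 3 and IL1 2. The linear rise of 49.7 was 4.05 times the sum of 12.2.

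DCLK3, a kinase of the doublecortin family, rose with both by 2.74 while TNF alone gave 0.11 and IL1 alone 1.10; its interaction was 1.53 ± 0.40 (SE). A second DCLK3 probe differed from vehicle by -0.69 with both, by -0.50 with TNF and by -0.74 with IL1, none of them called, and its interaction was 0.55. PTGES, the inducible prostaglandin E synthase, read 3.40, 3.72 and 4.0 with both, above all single arrays, which reached 2.71. Its linear rise of 11.6 was 2.42 times the sum, and its interaction was 0.53 ± 0.52 (SE). The monocyte chemokine CCL7 gave 2.11 times its sum, unlike CCL2. COXFA4L3 of the respiratory chain, the ion channel TRPA1 and the adenosine receptor ADORA2A completed the class. CRABP2, a carrier of retinoic acid, was the only member of the class with less than the sum. It fell by 3.13 with both, with a linear ratio of 0.64 and an interaction of 0.64 ± 0.40 (SE). Its single falls sum to more than its vehicle level, which no fall can exceed. A ratio under 1 was therefore fixed in advance for CRABP2.

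Outside the 63 genes, the lowest interaction p values among genes above the median signal included 1 more below 0 and 5 more above. RGS16, which shortens G protein signals, read -0.87, -1.22 and -1.35 in vehicle, 2.21, 0.69 and 2.39 with TNF, 1.60, 0.85 and 3.78 with IL1, and 0.36, 0.62 and 1.42 with both. All single-cytokine arrays lay above vehicle, and the arrays with both lay at their lower end. Its interaction was -4.18 ± 0.99 (SE; unadjusted p = 0.00168, limma), but a second probe gave -0.39.

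The 5 genes above 0 had lower means with each cytokine alone than with vehicle, and higher means with both than with either. ANGPT1, the ligand of the vascular receptor TIE2, was at 3.69, 3.16 and 3.45 in vehicle, 1.93, 1.99 and 2.27 with TNF, 2.79, 2.41 and 1.15 with IL1, and 3.19, 3.03 and 2.95 with both. Levels with either cytokine were below vehicle on every array, and levels with both were above all single arrays. Its interaction was 2.31 ± 0.51 (SE; unadjusted p = 0.00112, limma). SERPINB7, a protease inhibitor, gave 1.5 ± 0.33 and KITLG, the stem cell factor, 1.39 ± 0.38 (SE). LINC00473, a long non-coding RNA, gave 1.15 ± 0.32 and the ETS factor ELF3 gave 0.98 ± 0.27 (SE). Second probes had the opposite sign for KITLG, at -0.82, and for LINC00473, at -0.16.

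**Figure D4:**
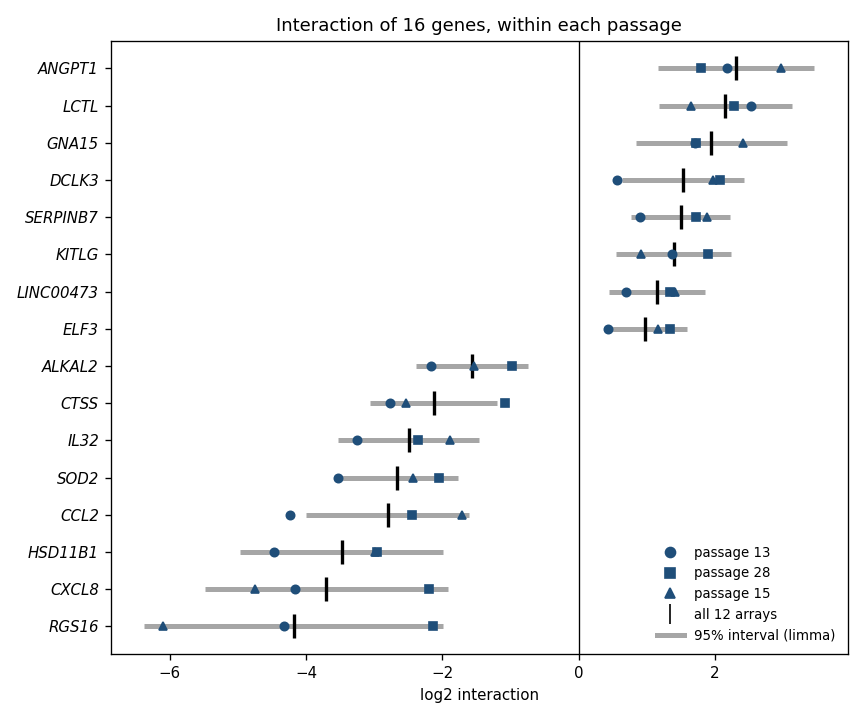
The x axis is the log2 interaction of the 16 genes above the median signal with the lowest interaction p, 8 in each direction; symbols are the value from the 4 arrays of 1 passage, black ticks the value from all 12 arrays and grey bars its 95% interval. Because these genes were ranked by this value, their agreement is no test. All 3 passages of each gene lie on the same side of 0, and passage 28 lies nearest to 0 for 6 of the 8 below 0: SOD2, HSD11B1, CTSS, CXCL8, RGS16 and ALKAL2.

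The TNF array of passage 28 often read low. In the 51 raised genes with all values, it was the lowest of the 3 TNF arrays in 37 (72.5%), where it was the lowest in 32.0% of all genes. With IL1 the array of that passage was lowest in 28 of 51 (54.9%), near the 51.5% seen in all genes, and with both cytokines in 13 (25.5%) against 34.1%. The gene lists below are therefore given by passage as well.

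Receptors and their immediate signalling proteins gave little. Of 21 measured genes of this list only MAP3K8 was called with both cytokines, where 0.287% of all genes were called higher. The median interaction was -0.07, with 11 below 0; it was -0.19, 0.41 and -0.36 in passages 13, 28 and 15 and turned positive without vehicle 3 (0.25), TNF 1 (0.09) or IL1 1 (0.03). The receptor TNFRSF1A had mean log2 levels of 2.37 in vehicle, 2.18 with TNF, 2.30 with IL1 and 2.60 with both. IL1R1 was not measured here by a probe of 1 gene. TNF itself was flat, at 2.79, 2.72, 2.71 and 2.78 in the same order.

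Subunits and feedback genes of NF-kB lay mostly below the product in passages 13 and 15, and mostly above it in passage 28. Over all arrays 15 of 18 measured genes had an interaction below 0, where 43.1% of all genes did, with a median of -0.39. The count was 10 without vehicle 3 or without TNF 1, and it was 18, 3 and 16 in passages 13, 28 and 15. Called higher with both were 4 (against 0.287% of all genes): SOD2, TNFAIP3, TNIP3 and ZC3H12A. NFKBIE, an inhibitor of NF-kB, gave -1.32 ± 0.52 (SE); its mean level with TNF was above that with both. The list's median was -0.51 in passage 13, 0.53 in passage 28 and -0.95 in passage 15, and it ran from -0.56 without vehicle 1 to -0.02 without vehicle 3.

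Among the secreted ligands the lists did not share 1 pattern. Of 6 neutrophil-attracting chemokines 3 were called higher (CXCL8, CXCL2 and CXCL3), against 0.287% of all genes. Their median interaction of 0.08 had no settled sign: it was -1.87, 0.96 and 0.51 in passages 13, 28 and 15, and -0.15 to 0.43 when single arrays were left out. Of 8 CC chemokines 3 were called higher (CCL2, CCL5 and CCL7), and 6 lay below 0 (against 43.1% of all genes) with a median of -0.42. That median was -1.16, 0.56 and -0.56 by passage and 0.21 without vehicle 1, when 3 lay below 0. The list of CXCR3 ligands and other chemokines had 4 of 6 below 0 and a median of -0.67, with -1.26, -0.59 and 0.02 by passage. The CXCR3 ligands CXCL10 and CXCL11 were not called with both; their interactions were -2.58 ± 1.10 and -1.99 ± 0.89 (SE). Of 19 inflammatory cytokines and growth factors 4 were called higher (IL6, IL32, IL33 and EBI3). Their median was -0.32, with -0.83, 0.45 and -0.64 by passage, and -0.50 to -0.10 when single arrays were left out. TNFSF15, a relative of TNF, gave -2.34 ± 0.66 (SE) and was not called with both; a second probe gave -0.22.

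Downstream programmes differed in the same descriptive way. Of 41 interferon response genes 5 were called higher (IFI27, IFI44L, ISG20, BST2 and EPSTI1), against 0.287% of all genes. The median interaction was 0.09, near that of all genes. It was -0.05, 0.35 and 0.12 in passages 13, 28 and 15 and -0.06 without vehicle 1. In this list IFIT1 gave an interaction of 1.58 ± 0.67 and OAS3 one of 0.89 ± 0.33 (SE). Neither gene was called with both: they differed from vehicle by 0.49 and 0.19 (adjusted p = 0.708 and 0.779, limma). IFIT1 changed by 0.16 with TNF and -1.26 with IL1, and OAS3 by -0.33 with TNF and -0.36 with IL1. Of 15 antigen presentation genes, 12 lay below 0 (against 43.1% of all genes) with a median of -0.27. By passage the median was -0.47, 0.23 and -0.32, and 14, 5 and 11 genes lay below 0. In the prostaglandin list PTGES was the only gene of 11 called. The list had a median of 0.24, with -0.23, 0.25 and 0.49 by passage, and the phospholipase PLA2G4C gave -1.32 ± 0.45 (SE).

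Structural matrix genes mostly lay above the product, with 2 of 25 below 0 (against 43.1% of all genes) and a median interaction of 0.53. The count was 10 without vehicle 1 or without TNF 3, and 14 in passage 15. None was called with both cytokines, and their median effects were -0.26 with TNF, -0.26 with IL1 and 0.04 with both. FBN1, a microfibril protein, gave 1.00 ± 0.45 and the proteoglycan DCN 0.75 ± 0.34 (SE). The list's median was 0.55, 1.06 and -0.05 in passages 13, 28 and 15, and it was 0.13 without TNF 3, 0.16 without vehicle 1, 0.21 without IL1 2, 0.34 without vehicle 2 and 1.11 without vehicle 3. Contractile genes gave 0.40 with 1 of 11 below 0, and here the passages read 0.07, 0.08 and 0.93; it was lowest, at 0.06, without IL1 3.

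Of the cell cycle genes 24 of 32 lay below 0 (against 43.1% of all genes), with a median interaction of -0.41. The count was 25, 2 and 27 in passages 13, 28 and 15. The median ran from -0.78 without vehicle 2 to -0.10 without vehicle 3. The median effect of both cytokines was -1.12, against -0.42 with TNF and -0.33 with IL1, and no member was called. Their passage medians spanned from -2.06 in passage 15 to 1.26 in passage 28, wider than any other list, and CENPA and UBE2C had interactions of -2.09 ± 1.28 and -1.65 ± 1.08 (SE).

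**Figure D5:**
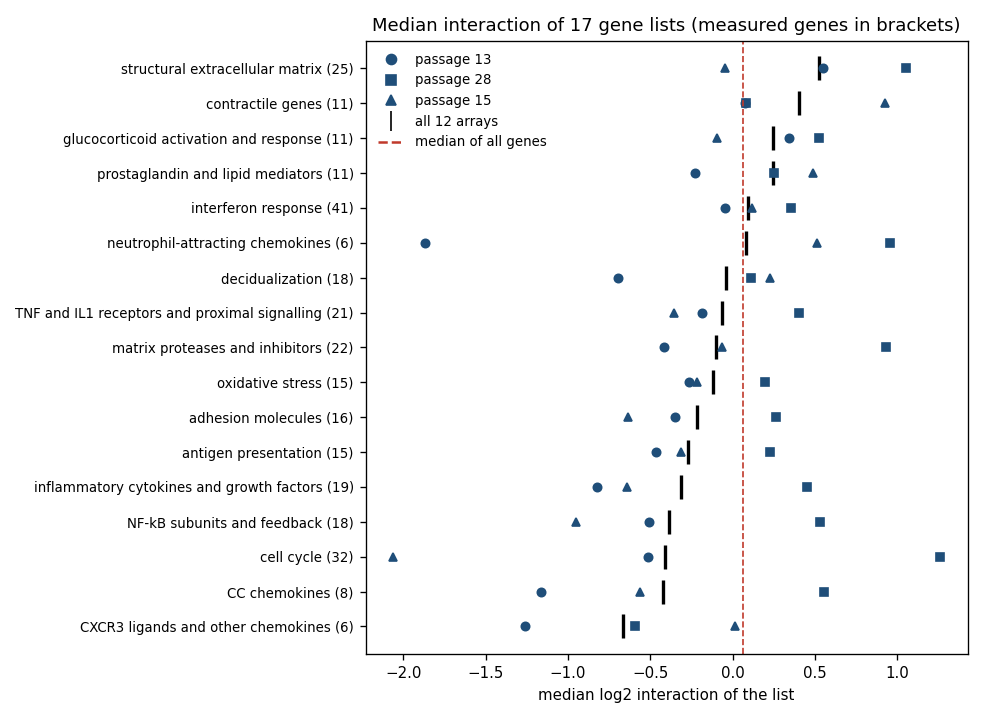
The x axis is the median log2 interaction of each of 17 gene lists, with the number of measured genes in brackets; symbols are single passages, black ticks all 12 arrays and the dashed line the median of all genes, 0.07. Lists are ordered by the value from all arrays, from -0.67 for CXCR3 ligands and other chemokines to 0.53 for structural matrix. The passages spread most for the cell cycle list, from -2.06 to 1.26.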

How the data were processed

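Each cRNA was labelled with a single dye and hybridised to its own CodeLink whole-genome array, per the labels. The values that the authors deposited are linear intensities; how they were scaled is not given in the sources used here, and medians near 1 were read from the values. The code -9999 (0.716% of values) was set to missing, as were values at or below 0 (1.10%) before log2. Of 54359 probes, 23472 have 1 listed gene, 905 several and 29982 none; symbols were updated by Entrez identifier.

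Group means of log2 intensity were fitted to 12 arrays with limma 3.58.1 in R 4.3.3 (lmFit and eBayes, 8 residual degrees of freedom, no block, two-sided) and adjusted over all probes tested. The linear fit weighted each value by 1 over its squared group mean. An exact permutation test of 3 against 3 arrays cannot go below 0.1. Same-numbered arrays share a passage per the labels; the 18 such pairs had residual correlations of -0.20 to 0.31 (mean 0.01). Scripts were tested on simulated data.

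The named genes were the 8 with the lowest interaction p in each direction, the 5 largest of each class, members of the fixed lists with the lowest p, and receptors and reference genes. Members and lists were chosen with earlier results of these data known. The number of arrays limits the precision.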

Additional observations from a re-analysis of the deposited data

How the results depend on the processing

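The interaction gave 0 calls on the log2 scale under each alternative run except 1 (1 probe, CXCL8, without TNF replicate 2, a range of 0 to 1 over left-out replicates), and 0 on the linear scale under all of them; with passage as replicate block it was also 0. The lowest adjusted p of a named gene's interaction with all arrays was 0.205, with array quality weights (limma). Counts for single comparisons moved more. TNF minus vehicle gave 38 calls with an offset before the log, 61 among bright probes, 57 with a variance trend and robust prior, 48 with array weights, 13 with the block, 0 without vehicle 3, TNF 3 and IL1 2, and 0 to 42 without single replicates. IL1 minus vehicle gave 8, 8 and 7 with bright probes, the robust prior and array weights, 0 without those 3 arrays, and 0 to 10. The comparison both minus vehicle gave 321, 219, 1677 and 88 with bright probes, the robust prior, array weights and the block, 77 without those 3 arrays, and 4 to 137. The comparison both minus TNF gave 2 after quantile normalization, 3 with the offset, 3 among bright probes, 2 with the robust prior, 56 with array weights, 0 with the block, and 0 to 3. The comparison both minus IL1 gave 50 with array weights, 1 without those 3 arrays, and 0 to 1.

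Raising the threshold of the gain from 0.5 to 1 gave 23 saturating, 13 with 1 cytokine, 5 adding, 8 multiplying and 0 under the sum; genes called with the block gave 7 saturating, 3 with 1 cytokine and 7 multiplying. The class under the sum held 0 with group medians, 2 with the offset and 0 without those 3 arrays. Without single arrays the classes held 7 to 17 multiplying, 5 to 10 above the sum and 0 to 3 under it, and 46 to 57 genes kept their class. SOD2, CXCL8, IL32, CCL2 and CTSS kept it each time; CXCL2, PTGES and MEST kept it in 6, 6 and 5 of 12. Of the interactions printed for single genes, those of UBD (-0.22 after quantile normalization, -0.14 without those 3 arrays, -0.82 to 0.98 without replicates), CXCL2 (-1.35 to 0.28) and TNFAIP3 (-0.86 to 0.21) changed sign. So did the medians of the lists of CC chemokines (-0.99 to 0.21), neutrophil-attracting chemokines (-0.16 to 0.43), interferon response (-0.06 to 0.27) and receptors with proximal signalling (-0.15 to 0.25). The pooled spread assumes equal groups, which the vehicle arrays exceed. No alternative that was listed was left out.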
